A study of Mus musculus with 13 samples.

Results

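The sestrins and a set of core mTORC1 genes were followed in M2 CD4 single-positive (CD4SP) thymocytes that carry 1 transgenic T cell receptor. The set holds 10 genes, listed by name: the sestrins Sesn1, Sesn2 and Sesn3, the stress-induced inhibitor Ddit4, the tuberous sclerosis genes Tsc1 and Tsc2, the GTPases Rraga and Rragd, the kinase Mtor and its partner Rptor. They are 10 of the 22330 genes with at least 1 count. M2 cells are the CD69- MHCI+ cells, the most mature CD4SP stage in the thymus, and were sorted by flow cytometry from Lm54 Rag1-/- mice, so that their receptor is the Lm54 transgene. In CtslΔTEC mice a Foxn1-cre transgene removes Ctsl, a lysosomal protease, from thymic epithelial cells, and the thymocytes themselves keep the gene. The control mice are labelled Ctsl fl/fl (WT) and are called WT here. Resting cells came from 4 WT and 5 CtslΔTEC mice. Stimulated cells came from 2 other WT and 2 other CtslΔTEC mice and were cultured for 4 h in serum-free medium with plate-bound LLO:Iab monomer at 1 µg/ml and soluble anti-CD28 at 250 ng/ml. Mouse numbers here are those of the sample titles. The names of the stimulated files carry other numbers, so that these were other mice rests on the titles. Each library is 1 mouse, and the labels give no age. The study describes storage of cells in RNA protectant and names no culture for the resting ones. Culture, stimulation and the date carried by the 4 stimulated libraries cannot be told apart, and "stimulated" below stands for all of them.

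mTORC1 is the protein kinase complex, built around MTOR with RAPTOR (the product of Rptor), that couples growth signals and amino acids to protein synthesis. Amino acids act through the Rag GTPases, of which RRAGA pairs with RRAGC or RRAGD to bring mTORC1 to the lysosome. Growth factor and antigen receptor signals act through PI3K and AKT on the TSC complex, in which TSC1 holds TSC2, and TSC2 switches off the mTORC1 activator RHEB. Sestrins restrain mTORC1 by binding the GATOR2 complex, and SESN2 is a leucine sensor. The product of Ddit4, REDD1, restrains mTORC1 through the TSC complex. In T cells mTORC1 drives the growth that follows antigen recognition.

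Sesn1, Sesn2, Sesn3 and Ddit4 are the inhibitors on which the results below turn, and the bases before their start sites are shown for that reason. The windows come from the RefSeq promoter table of GRCm38.p6, in which all 10 genes have an entry, 11 windows in all. They run 5′ to 3′ on the strand of the gene and stop where an exon is annotated. The second Sesn1 window lies in an annotated exon and is not shown. Capitals mark matches, on either strand, to 6 patterns looked for in the 250 bases before each start: TGATGNAA (a composite site read by ATF4), TGTTTAC (read by FOXO factors), CACGTG (an E-box), ACGTG (the core of a hypoxia element, which CACGTG also holds), GCGTG (a variant of that core) and the p53 half-site.
Sesn1 (chr10:41887189-41887438, strand +): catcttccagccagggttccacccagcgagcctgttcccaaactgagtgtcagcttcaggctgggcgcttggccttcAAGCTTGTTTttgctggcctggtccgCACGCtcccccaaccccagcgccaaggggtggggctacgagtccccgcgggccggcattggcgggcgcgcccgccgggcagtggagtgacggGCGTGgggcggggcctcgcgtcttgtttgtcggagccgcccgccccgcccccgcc
Sesn2 (chr4:132510502-132510706, strand -): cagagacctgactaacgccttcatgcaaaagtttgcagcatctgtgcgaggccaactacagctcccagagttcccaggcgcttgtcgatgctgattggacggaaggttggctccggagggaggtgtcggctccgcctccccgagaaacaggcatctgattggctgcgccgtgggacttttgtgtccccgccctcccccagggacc
Sesn3 (chr9:14276051-14276300, strand +): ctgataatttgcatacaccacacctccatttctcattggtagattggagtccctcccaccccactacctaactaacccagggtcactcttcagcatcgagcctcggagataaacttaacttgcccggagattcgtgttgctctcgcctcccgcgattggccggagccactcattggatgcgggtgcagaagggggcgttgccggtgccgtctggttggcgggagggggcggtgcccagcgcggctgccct
Ddit4 (chr10:59951835-59952020, strand -): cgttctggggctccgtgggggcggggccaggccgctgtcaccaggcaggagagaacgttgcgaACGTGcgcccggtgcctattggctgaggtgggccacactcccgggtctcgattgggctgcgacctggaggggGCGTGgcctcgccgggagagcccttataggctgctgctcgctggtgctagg
The Sesn1 window held a p53 half-site 173 bases before the start, a pattern present in 7.13% of the 32851 windows in the table, and GCGTG at 147 and 55 bases before it, the first on the other strand. The Ddit4 window held ACGTG at 187 bases and GCGTG at 115 bases before the start in the RefSeq table, which for this gene lies inside the annotated first exon, downstream of the printed bases. ACGTG was present in 16.6% of all windows and GCGTG in 28.2%. None of the 6 patterns was found in the Sesn2 or Sesn3 window, and TGATGNAA, TGTTTAC and CACGTG, present in 3.45%, 3.17% and 6.02% of all windows, were found in none of the 11. A match or its absence describes these letters in this window and says nothing of binding.

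Resting libraries held 25692380 to 39127833 estimated counts and stimulated ones 8085463 to 27184520, the lowest being stimulated WT mouse 5. Retained-intron transcripts took 5.13% to 6.59% of the counts at rest. After stimulation they took 5.99% and 7.63% in WT mice and 7.94% and 8.55% in CtslΔTEC mice. Transcripts of Y-linked genes were present in all 5 resting CtslΔTEC mice and in 1 of 4 resting WT mice, and in 1 of 2 mice of each stimulated group. Markers of CD4 T cells summed to between 3880 and 5631 TPM (a level scaled to transcript length and library) in every library. Markers of the earlier double-positive (DP) stage, 8 genes all above 3 counts in some library, summed to 63.2 to 99.3 TPM in resting WT and 314 to 388 TPM in resting CtslΔTEC mice, and to 23.4 to 25.1 and 58.8 to 64.2 TPM after stimulation. In CtslΔTEC cells 6 of the 7 tested were higher at rest and 3 of the 8 tested after stimulation. Over all genes tested, 6.42% were higher at rest and 2.77% after stimulation. The 8 activation markers rose in both genotypes, from at most 431 TPM in any resting library to 7105 to 9289 in stimulated WT and 10351 to 10605 in stimulated CtslΔTEC mice. Foxn1, Krt5, Krt8 and Krt14 of thymic epithelium, S100a8 of myeloid cells and Pax5 of B cells had 3 counts or fewer in every library. Over their whole lists, markers summed to 15.3 to 22.0 TPM for thymic epithelium, 44.9 to 75.0 for myeloid cells, 0.293 to 2.25 for B cells and 9.67 to 771 for erythroid cells, the highest in a resting CtslΔTEC mouse. The part of DP-stage RNA, sex and retained introns in the differences between genotypes was not tested beyond the values given beside the results. In bulk RNA, fewer cells of a type and less RNA per cell cannot be told apart.

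Per unit of transcript length, resting WT cells held most transcripts of Ddit4, Sesn1 and Sesn3 among the 10 genes. Ddit4 was at 167 ± 63.8 TPM (SD, n = 4 mice), Sesn1 at 79.9 ± 13.9 and Sesn3 at 50.4 ± 6.28. Rraga, at 36.6 ± 3.45 TPM, and Tsc2, at 30.1 ± 3.25, followed. Tsc1, Mtor and Rptor stood at 17.0 ± 2.27, 16.2 ± 1.92 and 15.3 ± 1.80 TPM, within a spread of each other. Sesn2 was far lower at 2.09 ± 0.114 TPM, and Rragd, at 1.20 ± 0.304, was the lowest of the 10. Resting CtslΔTEC cells had the same order, with Ddit4 at 148 ± 38.8 TPM (SD, n = 5 mice) and Rragd at 1.23 ± 0.201. After stimulation Sesn3 was at 58.7 and 68.1 TPM and Rraga at 61.3 and 50.4 TPM in WT mice 5 and 6, so that Rraga was the higher in mouse 5 and Sesn3 in mouse 6. In CtslΔTEC mice 6 and 7 Rraga was highest, at 50.5 and 51.3 TPM, with Tsc2 at 36.1 and 48.3 and Sesn3 at 43.4 and 38.9.

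**Figure D1:**
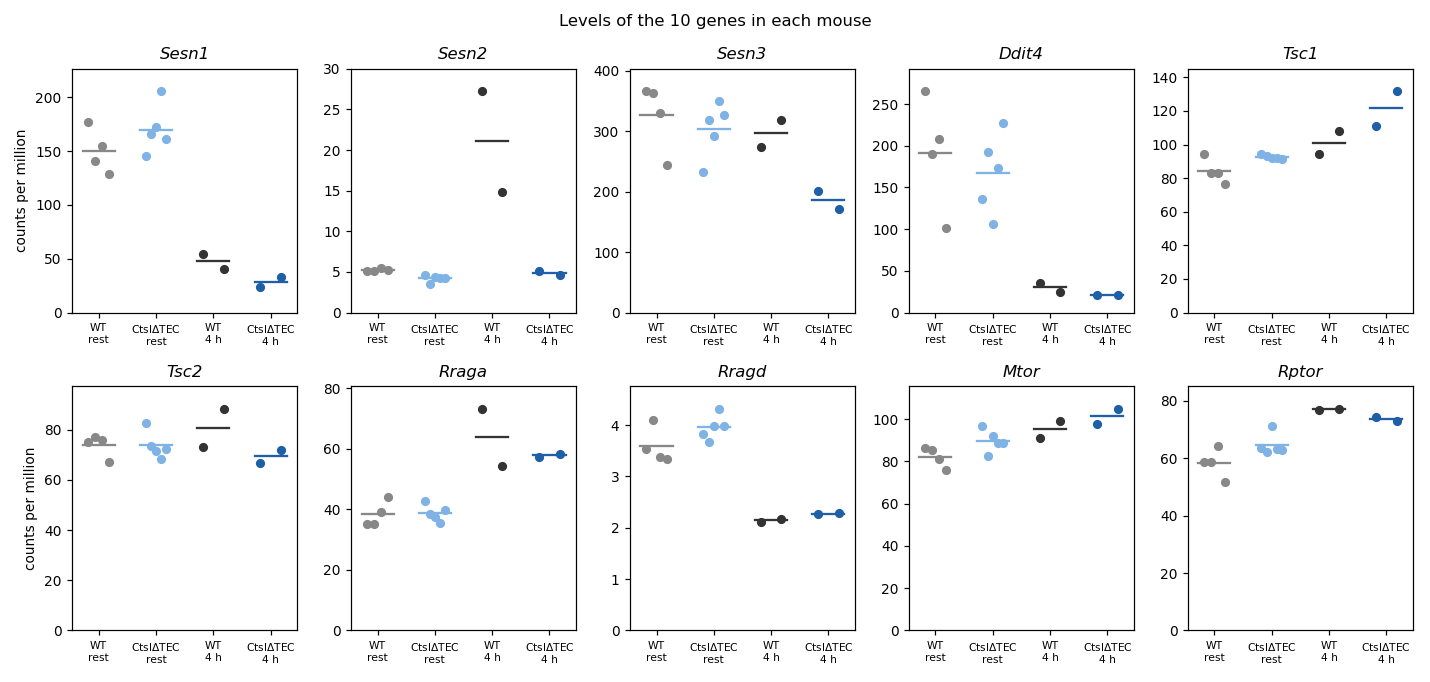
CPM, the counts scaled to library size (y axis, linear from 0, each panel with its own range) of the 10 genes; each point is 1 mouse and each bar the group mean, for 4 WT and 5 CtslΔTEC mice at rest and 2 and 2 after 4 h of stimulation. Sesn2 reached 27.3 and 14.9 in stimulated WT mice and stayed between 3.47 and 5.50 in the 11 others, while Sesn1 and Ddit4 were lower in every stimulated mouse than in any resting one.

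At rest, whether selection without CTSL in the epithelium changed these genes was asked with 5 against 4 mice. None of the 10 passed, at an adjusted p under 0.1 from edgeR's quasi-likelihood test with Benjamini-Hochberg adjustment over all genes, whereas 14.8% of the 13152 genes tested did, 6.42% higher and 8.36% lower in CtslΔTEC cells. DESeq2 and limma also called none, and 2 of the 10, Sesn2 and Tsc1, had an unadjusted p under 0.05. The median log2 fold change of the 10 was 0.07, against 0.01 for all genes tested. Of the 10, 1 gene, Sesn2, had levels that did not overlap between genotypes, as had 13.9% of all genes tested.

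Sesn2 was at 5.08, 5.16, 5.19 and 5.50 counts scaled to library size (CPM) over the 4 resting WT mice and at 3.47, 4.26, 4.26, 4.43 and 4.68 in the 5 CtslΔTEC mice. All 5 CtslΔTEC values thus lay below the WT ones, although each rests on 119 to 187 counts. The log2 fold change was −0.31 (standard error 0.12, edgeR adjusted p = 0.146), and a two-sided exact permutation test gave p = 0.0159, the smallest that 5 against 4 mice allow. With file date as a factor the log2 fold change was −0.33 (edgeR adjusted p = 0.0958), which passes, within the second date alone it was −0.39 (edgeR adjusted p = 0.15), and with the level of Y-linked transcripts as a covariate −0.37 (edgeR adjusted p = 0.555). Sesn1 was at 129 to 177 CPM in WT and 145 to 206 in CtslΔTEC mice, with medians of 148 and 166, and Sesn3 at 244 to 367 and 232 to 350, with medians of 347 and 319. Ddit4 varied most within a genotype, from 101 to 266 CPM in WT and from 106 to 227 in CtslΔTEC mice. The ranges of these 3 genes overlapped, and their edgeR adjusted p values were 0.373, 0.724 and 0.72.

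The TSC, Rag and kinase complex genes did not pass at rest either. Tsc1 was at 76.8 to 94.3 CPM in WT and 91.1 to 94.6 in CtslΔTEC mice, a log2 fold change of 0.14 (standard error 0.06, edgeR adjusted p = 0.201). Without WT mouse 1, the highest of its group, it was 0.20 and passed (edgeR adjusted p = 0.0676). Mtor and Rptor had log2 fold changes of 0.13 and 0.15, each with an edgeR adjusted p of 0.251, and Tsc1, Mtor and Rptor each had p = 0.0794 in the exact permutation test. Rraga and Tsc2 differed by 0.01 and 0.00 on the log2 scale, with standard errors of 0.09 and 0.07. Rragd, with 91 to 160 counts per resting library, differed by 0.14 on the log2 scale (standard error 0.13, edgeR adjusted p = 0.55).

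Stimulation moved most of the genes in both genotypes, and so it did most genes of the transcriptome. In WT cells 8 of the 10 passed, 5 higher and 3 lower, where 67.7% of the 14241 genes tested passed, 32.9% higher and 34.8% lower. In CtslΔTEC cells 8 of the 10 passed as well, 4 higher and 4 lower, where 71.2% passed, 32.9% higher and 38.2% lower. A count of 8 among 10 is near these backgrounds. The median log2 fold change of the 10 was 0.17 in WT and 0.05 in CtslΔTEC cells, against 0.009 and −0.064 for all genes tested. Responses rest on 2 stimulated mice per genotype and on a spread shared by the 13 libraries.

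The largest falls among the 10 genes were those of 2 inhibitors. Ddit4 dropped from a resting median of 199 CPM to 35.6 and 24.9 CPM in stimulated WT mice 5 and 6, and from 173 to 21.0 and 20.7 in CtslΔTEC mice 6 and 7. Every stimulated value lay below the lowest resting one, 101 CPM. The log2 fold change was −2.68 (standard error 0.37, edgeR adjusted p = 1.51e-05) in WT and −3.00 (standard error 0.37, edgeR adjusted p = 4.25e-06) in CtslΔTEC cells. Sesn1 fell from 129 or more CPM in any resting mouse to 54.3 and 40.6 in stimulated WT and 24.0 and 32.9 in stimulated CtslΔTEC mice. Its log2 fold change was −1.68 (standard error 0.18, edgeR adjusted p = 1.08e-06) in WT and −2.57 (standard error 0.19, edgeR adjusted p = 1.13e-08) in CtslΔTEC cells, 3.20-fold and 5.95-fold lower.

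Sesn2, the least abundant sestrin at rest, rose in WT cells to 27.3 CPM in mouse 5 and 14.9 CPM in mouse 6, from at most 5.50 at rest. This was a 3.96-fold rise, a log2 fold change of 1.99 (standard error 0.20, edgeR adjusted p = 4.00e-07), and without mouse 5 it was 1.49. In CtslΔTEC cells the stimulated value of 5.06 CPM lay just above the resting range of 3.47 to 4.68 CPM, and that of 4.62 CPM within it. The log2 fold change was 0.19 (standard error 0.21, edgeR adjusted p = 0.434). With the retained-intron share as a covariate it was 0.98 and passed (edgeR adjusted p = 0.0196). Sesn3, the most abundant sestrin after stimulation, was at 274 and 319 CPM in stimulated WT mice, inside the resting range, and the log2 fold change was −0.14 (standard error 0.17, edgeR adjusted p = 0.509). In CtslΔTEC cells it fell to 201 and 171 CPM, below every resting mouse, a log2 fold change of −0.71 (standard error 0.17, edgeR adjusted p = 0.00191). With an offset for transcript length, which changed for Sesn3 as described with the transcripts below, the WT value turned to a rise of 0.39 (edgeR adjusted p = 0.00604) and the CtslΔTEC value, at −0.20, did not pass (edgeR adjusted p = 0.121).

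Of the Rag genes, Rraga rose and Rragd fell in both genotypes. Rraga went from 35.2 to 44.2 CPM at rest to 73.2 and 54.2 CPM in stimulated WT mice and 57.3 and 58.4 in stimulated CtslΔTEC mice, with log2 fold changes of 0.72 (standard error 0.12, edgeR adjusted p = 0.000126) and 0.58 (standard error 0.12, edgeR adjusted p = 0.000535). Rragd went from 3.33 to 4.32 CPM over the resting mice to 2.12 and 2.17 in WT and 2.26 and 2.28 in CtslΔTEC mice, on 16 to 56 counts per stimulated library. Its log2 fold changes were −0.74 (standard error 0.19, edgeR adjusted p = 0.00366) and −0.80 (standard error 0.19, edgeR adjusted p = 0.00141). With the retained-intron share as a covariate Rragd, at −0.61 and −0.62, did not pass (edgeR adjusted p = 0.14 and 0.204).

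Changes of the kinase complex and of the TSC genes were small. Rptor was at 76.8 and 77.2 CPM in stimulated WT mice and 74.4 and 72.8 in stimulated CtslΔTEC mice, above the resting range of 51.6 to 71.0, with log2 fold changes of 0.40 (edgeR adjusted p = 0.00143) and 0.19 (edgeR adjusted p = 0.0707). Mtor rose by 0.21 (edgeR adjusted p = 0.0443) and 0.18 (edgeR adjusted p = 0.0728). Mtor in both genotypes and Rptor in CtslΔTEC cells did not pass with library totals, upper-quartile factors, no filter on low counts or the retained-intron share as a covariate, nor, in CtslΔTEC cells, without any one of the 4 stimulated mice or without resting CtslΔTEC mouse 4 or 5 or WT mouse 1 or 2. Rptor in CtslΔTEC cells was at 0.00 (limma adjusted p = 0.993) with limma on log2(TPM + 1) and at 0.09 (edgeR adjusted p = 0.454) with an offset for transcript length. Without stimulated WT mouse 6 the WT response of Mtor (0.13, edgeR adjusted p = 0.348) and of Tsc1 (0.15, edgeR adjusted p = 0.347) did not pass. Tsc1 rose by 0.27 (edgeR adjusted p = 0.0264) in WT and by 0.39 (edgeR adjusted p = 0.00162) in CtslΔTEC cells, and the first did not pass under the same scaling and filter settings, nor the second without CtslΔTEC mouse 7 (0.24, edgeR adjusted p = 0.101). With the retained-intron share as a covariate neither passed, at 0.09 (edgeR adjusted p = 0.605) and 0.11 (edgeR adjusted p = 0.618). Tsc2 did not pass in either, with log2 fold changes of 0.14 and −0.09 and edgeR adjusted p values of 0.256 and 0.438. Part of Tsc2, 693 bases, overlaps Pkd1 on the opposite strand, which had 79704 counts over all libraries, and Angptl7 lies inside Mtor on the opposite strand, with 81 counts over all libraries. Whether the libraries keep strand is not given in the sources used here.

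**Figure D2:**
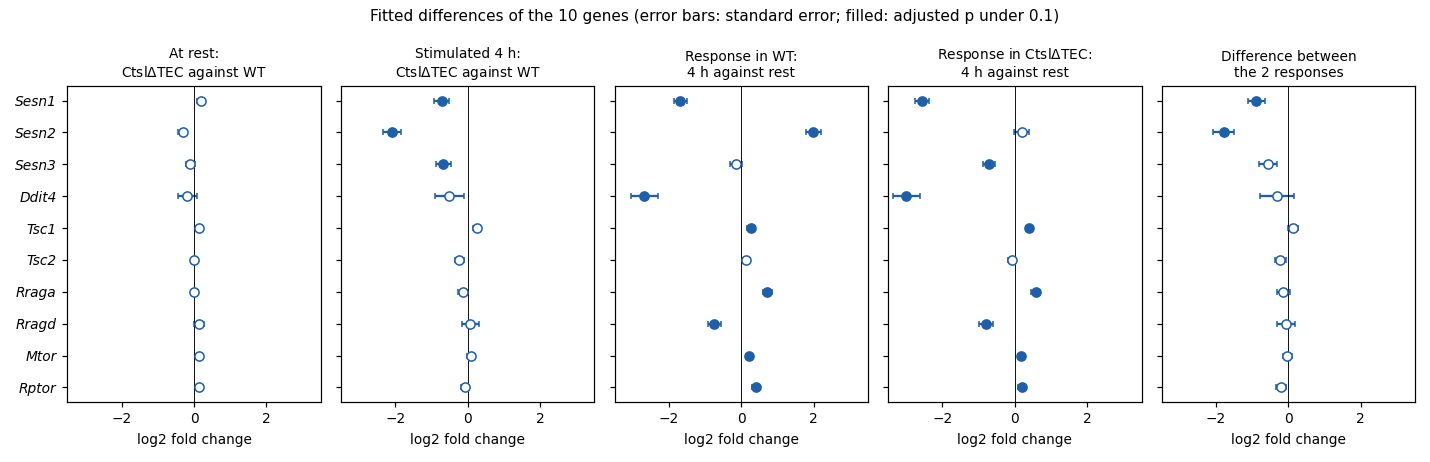
Log2 fold change (x axis, points with standard errors) of each gene in 5 comparisons; filled points passed an edgeR adjusted p under 0.1. At rest none is filled. After stimulation Sesn1, Sesn2 and Sesn3 are filled on the lower side, and the Sesn2 response is at 1.99 in WT and at 0.19, unfilled, in CtslΔTEC cells.

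After stimulation the genotypes differed in the sestrins. Of the 10 genes 3 passed, Sesn1, Sesn2 and Sesn3, and each was lower in CtslΔTEC cells, where 13.3% of the 14241 genes tested passed, 2.77% higher and 10.6% lower. The median log2 fold change of the 10 was −0.18, against −0.055 for all genes tested. Sesn2, at 206 and 383 counts in WT and 56 and 73 counts in CtslΔTEC mice, was 4.30-fold lower in CtslΔTEC cells, a log2 fold change of −2.10 (standard error 0.25, edgeR adjusted p = 0.000197). It passed with each library left out in turn, with values from −2.50 to −1.63, the smallest being without WT mouse 5, and was −1.54 (edgeR adjusted p = 0.00688) with a retained-intron covariate and −2.04 (edgeR adjusted p = 0.00395) when only the 4 stimulated libraries were fitted.

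Sesn1 was 1.65-fold lower, at a log2 fold change of −0.72 (standard error 0.20, edgeR adjusted p = 0.0368), and Sesn3 1.59-fold lower, with −0.67 (standard error 0.20, edgeR adjusted p = 0.0463). For both genes the 2 CtslΔTEC mice lay below the 2 WT mice. Such a separation of 2 mice from 2 was found for 8 of the 10 genes and does not single out the sestrins. Among the 8 were Rragd, with a log2 fold change of 0.07, and Rptor, with −0.06. The calls of Sesn1 and Sesn3 are less firm than that of Sesn2. Sesn1 did not pass without CtslΔTEC mouse 6 (−0.52, edgeR adjusted p = 0.28) or without WT mouse 5 (−0.52, edgeR adjusted p = 0.282). Sesn3 did not pass without CtslΔTEC mouse 6 (−0.80, edgeR adjusted p = 0.11), without CtslΔTEC mouse 7 (−0.57, edgeR adjusted p = 0.236) or without WT mouse 6 (−0.56, edgeR adjusted p = 0.164). The retained-intron share was higher in both CtslΔTEC mice, and with it as a covariate Sesn1 was at −0.56 (edgeR adjusted p = 0.349) and Sesn3 at −0.72 (edgeR adjusted p = 0.194).

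The other 7 genes did not pass. The log2 fold change was −0.51 for Ddit4 (standard error 0.40, edgeR adjusted p = 0.493), 0.26 for Tsc1 (standard error 0.11, edgeR adjusted p = 0.177), −0.23 for Tsc2 (standard error 0.12, edgeR adjusted p = 0.275) and −0.13 for Rraga (standard error 0.15, edgeR adjusted p = 0.667). Rragd, Mtor and Rptor lay between −0.06 and 0.09, with standard errors of 0.23, 0.10 and 0.11. DESeq2 called 4 of the 10, the sestrins and Tsc1 (0.28, DESeq2 adjusted p = 0.0933), and Tsc1 also passed with at least 10 counts required in every library (0.33, edgeR adjusted p = 0.0757). With 2 mice against 2 an exact permutation test cannot go below 0.33, so none was made.

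An interaction term over the 13 libraries asked whether the genotypes differed more, or less, once stimulated. Of the 10 genes 2 passed, both with a more negative difference after stimulation, where 6.01% of the genes tested passed, 1.13% in the positive and 4.88% in the negative direction. The median of the 10 was −0.22, against −0.065 for all genes tested. For Sesn2 the interaction was −1.79 (standard error 0.29, edgeR adjusted p = 0.00558): the response of CtslΔTEC cells was 3.47-fold smaller than that of WT cells. Leaving out a library moved it between −2.19 and −1.32, and it passed each time. For Sesn1 it was −0.89 (standard error 0.24, edgeR adjusted p = 0.053), and it did not pass without stimulated CtslΔTEC mouse 6, stimulated WT mouse 5 or resting CtslΔTEC mouse 3, nor with Y-linked or retained-intron levels as a covariate. For Sesn3 it was −0.57 (edgeR adjusted p = 0.239), and for Ddit4 −0.32 (edgeR adjusted p = 0.819), neither of which passed. The Sesn3 interaction did pass with an offset for transcript length (−0.59, edgeR adjusted p = 0.0574) and with limma on log2(TPM + 1) (−0.61, limma adjusted p = 0.0678). The interaction and the comparisons above share their libraries and are not independent of each other.

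Summed over the sestrins, resting mice held 110 to 157 TPM in WT and 128 to 173 TPM in CtslΔTEC cells. After stimulation the sum was 93.3 and 96.0 TPM in WT and 56.3 and 56.0 TPM in CtslΔTEC mice, below every resting mouse in both. Sesn1 made up 57.4% to 66.9% of the sum at rest and 19.6% to 27.5% after stimulation, when Sesn3 made up 63.0% to 77.1%. Sesn2 went from 1.36% to 1.84% of the sum in resting WT mice to 10.2% and 6.03% in stimulated ones, and from 0.998% to 1.51% to 3.32% and 3.05% in CtslΔTEC mice. Its share was thus higher in stimulated than in resting CtslΔTEC cells too, beside a Sesn2 level of 1.71 and 1.87 TPM that lay within the resting range of 1.37 to 1.94 TPM.

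**Figure D3:**
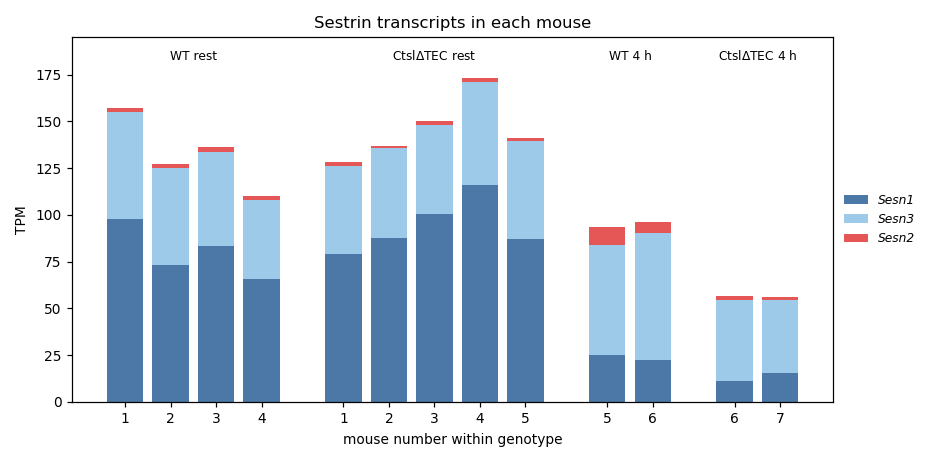
Summed TPM of the sestrins in each of the 13 mice (stacked bars, y axis linear from 0), split into Sesn1, Sesn3 and Sesn2. The sum was 93.3 and 96.0 in stimulated WT and 56.3 and 56.0 in stimulated CtslΔTEC mice, and the Sesn2 segment is widest in the 2 stimulated WT mice.

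The files give a value for each transcript, and the make-up of several genes differed between resting and stimulated cells. Coordinates are those of GENCODE M21 on GRCm38, and shares are of the gene's TPM as kallisto divided the reads. Sesn1 (chromosome 10, 41809935 to 41908424, plus strand) has a main transcript, Sesn1-201, that starts at 41887439, and Sesn1-202, which starts at 41809935. The Sesn1 window shown above lies directly before the start of Sesn1-201. Sesn1-202 held 4.36% to 9.61% of Sesn1 at rest, 7.69% and 12.0% in stimulated WT mice and 16.4% and 20.4% in stimulated CtslΔTEC mice. In TPM it was also lower, at 4.69 to 6.34 at rest and 1.93 to 2.66 after stimulation, while Sesn1-201 was at 59.6 to 111 TPM and 8.79 to 23.1.

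Sesn3 (chromosome 9, 14275067 to 14333101, plus strand) has a 9125-base transcript, Sesn3-204, and a 1827-base transcript, Sesn3-201, with the same stop codon at 14325704. Sesn3-204 extends 7395 bases beyond the stop codon and Sesn3-201 extends 71. Sesn3-201 also starts at another first exon, at 14275083 rather than 14276301. Sesn3-204 held 72.4% to 95.8% of Sesn3 at rest and 53.1% to 61.2% after stimulation, with no overlap. Resting WT mouse 4, at 79.3%, and CtslΔTEC mouse 1, at 72.4%, were below the other 7 resting mice, which lay between 91.5% and 95.8%. Sesn3-201 was at 0 to 7.56% at rest and at 14.0% to 23.4% in the 4 stimulated mice, on 102 to 305 estimated counts per stimulated library. Both genotypes had this shift. In TPM, Sesn3 stood at 58.7 and 68.1 in stimulated WT mice against 42.1 to 57.2 at rest, and at 43.4 and 38.9 in stimulated CtslΔTEC mice against 47.0 to 55.5. These shares of transcripts were not tested.

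In Mtor (chromosome 4, 148448611 to 148557683, plus strand) the full-length transcript Mtor-202 held 66.5% to 81.8% at rest and 54.5% to 65.8% after stimulation. Mtor-201, 1003 bases long, covers the first 6349 bases of the gene and went from 2.53% to 7.65% at rest to 14.8% to 33.0% after stimulation. These shares of TPM rest on 28.1 to 65.6 estimated counts of Mtor-201 per stimulated library, against 658 to 2430 of Mtor-202. In TPM, Mtor-202 was at 11.2 to 15.3 at rest and 11.7 to 14.2 after stimulation. Retained-intron transcripts of Tsc2 (chromosome 17, 24595816 to 24632630, minus strand) took 34.0% to 49.3% of the gene's TPM at rest and 52.6% to 67.8% after stimulation. These TPM shares rest on few reads of short transcripts, such as Tsc2-208 at 623 bases. Retained-intron transcripts of Tsc2 held 44.2 to 272 estimated counts per stimulated library, against 509 to 1990 for its protein-coding transcripts. With an offset for transcript length Tsc2 passed as a rise of 0.49 (edgeR adjusted p = 0.00713) in WT and 0.48 (edgeR adjusted p = 0.0063) in CtslΔTEC cells, the latter against a value of −0.09 on counts alone. In CtslΔTEC cells it passed as a fall with library totals (−0.23, edgeR adjusted p = 0.0538) and with the retained-intron share as a covariate (−0.42, edgeR adjusted p = 0.0489), so its direction depends on the setting. Sesn2 (chromosome 4, 132492032 to 132510501, minus strand), Ddit4 (chromosome 10, 59949669 to 59951834, minus strand) and Rraga (chromosome 4, 86575668 to 86577285, plus strand) have 1 annotated transcript each. The main transcripts of Tsc1 and Rptor were Tsc1-201 and Rptor-201. Tsc2-221 held 23.7% to 36.6% of Tsc2 at rest and 16.5% to 22.9% after stimulation, when Tsc2-208 held more in each of the 4 mice, at 18.9% to 35.0%. In estimated counts Tsc2-208 was at 13.7 to 89.2 in these 4 mice and Tsc2-221 at 186 to 1148.

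**Figure D4:**
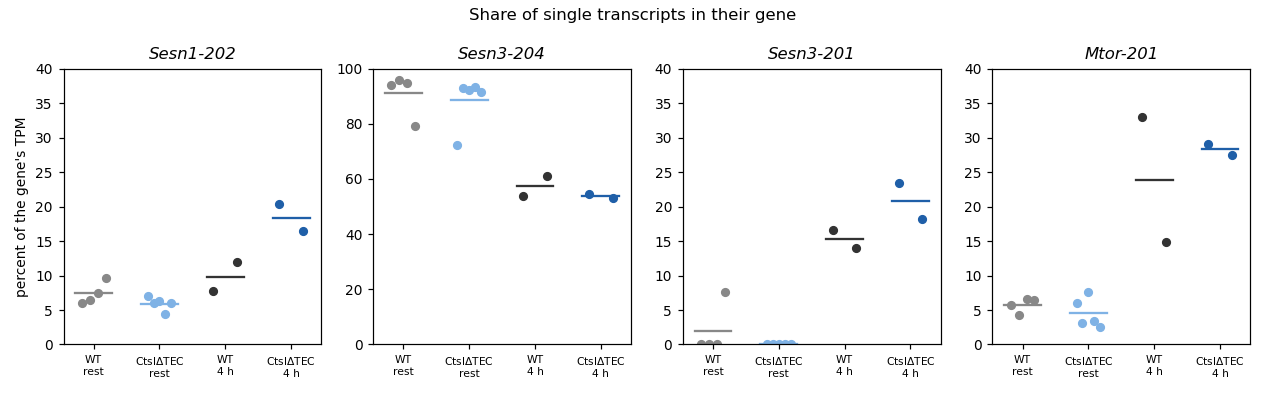
Share of Sesn1-202, Sesn3-204, Sesn3-201 and Mtor-201 in the TPM of their gene (y axis, percent; up to 100 for Sesn3-204 and up to 40 for the others); points are mice and bars group means. Sesn3-204 went from 72.4% to 95.8% at rest to 53.1% to 61.2% after stimulation, and Sesn3-201 and Mtor-201 were higher in every stimulated mouse than in any resting one. Mtor-201 rests on 28.1 to 65.6 estimated counts per stimulated library.

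The rest of the pathway was read from 7 lists of 66 genes. At rest 63 of them were tested and 7 passed, 2 higher and 5 lower in CtslΔTEC cells (median log2 fold change 0.00, against 0.01 for all genes tested), where 6.42% of all genes were higher and 8.36% lower, so the share was not above the background. Rragb, the close relative of Rraga, was higher at 0.55 (standard error 0.15, edgeR adjusted p = 0.043), from 5.67 CPM in WT to 8.26 CPM in CtslΔTEC mice. Lpin1, a phosphatidate phosphatase phosphorylated by mTORC1, was higher at 0.29 (edgeR adjusted p = 0.068). Castor1, an arginine sensor, was lower at −0.51 (edgeR adjusted p = 0.0134), as were the AMPK subunit genes Prkag2 at −0.30 (edgeR adjusted p = 0.0594) and Prkab2 at −0.34 (edgeR adjusted p = 0.0673). The other lower genes were Akt1 and Mlst8, each at −0.24 (edgeR adjusted p = 0.081 and 0.0759). None of Rragb (0.24, edgeR adjusted p = 0.808), Lpin1 (0.40, 0.329), Castor1 (−0.56, 0.233), Prkag2 (−0.31, 0.492) and Prkab2 (−0.52, 0.191) passed with the Y-linked covariate, or with limma except Castor1. Rragb did not pass without WT mouse 1 or 4, and Lpin1, Prkag2 and Prkab2 did not pass in 5, 4 and 6 of the 9 fits that left out a mouse. Castor1 did not pass with mouse number as a block (−0.53, edgeR adjusted p = 0.104) or with the retained-intron share as a covariate (−0.56, edgeR adjusted p = 0.129). Rragb, Prkag2 and Prkab2 did not pass with that covariate either.

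After stimulation 64 were tested and 15 passed, 1 higher and 14 lower in CtslΔTEC cells, with a median of −0.16 against −0.055 for all genes tested, where 13.3% of all genes passed, 2.77% higher and 10.6% lower. Calls over all genes were thus mostly lower too. The 1 higher gene was Rheb, the activator of mTORC1, at 0.37 (standard error 0.11, edgeR adjusted p = 0.0431), with mean levels of 173 CPM in WT and 223 CPM in CtslΔTEC mice. It did not pass without CtslΔTEC mouse 6 (0.27, edgeR adjusted p = 0.298) or without WT mouse 6 (0.29, edgeR adjusted p = 0.179). The 3 lower genes with the smallest p were Lpin1 at −1.33 (standard error 0.15, edgeR adjusted p = 0.000124), Pik3cd, the leukocyte PI3K catalytic subunit, at −0.82 (standard error 0.15, edgeR adjusted p = 0.00342), and Castor2, a relative of Castor1, at −1.34 (standard error 0.25, edgeR adjusted p = 0.00359). By list, 6 of the 10 genes listed as mTORC1 substrates, which include indirect ones such as Pdcd4, were lower and none higher. Beside Lpin1 the lower ones were Eif4ebp1 and Eif4ebp2, which encode translation repressors, Pdcd4, Tfeb, which encodes a lysosomal transcription factor, and Ulk1, the autophagy kinase. Their log2 fold changes were −1.45, −0.44, −1.10, −1.13 and −0.50. The other lists had 1 or 2 lower genes each, 2 of 14 for GATOR1, GATOR2, KICSTOR and the sensors, 2 of 11 for the PI3K and AKT arm, 1 of 11 for the Rag GTPases and Ragulator, 1 of 9 for the mTOR complexes, 1 of 6 for the AMPK arm and REDD2 and 1 of 3 for the further TSC and Rheb genes. Beside Castor2 and Pik3cd these were Wdr24 of GATOR2 at −0.41, Pik3r1 at −0.59, Lamtor2 of Ragulator at −0.55, Prr5l, of the mTOR complex 2 arm, at −3.07 (standard error 1.02, edgeR adjusted p = 0.0776), which had too few counts to be tested at rest and entered the fit through stimulated libraries, Prkag2 at −0.44 and Tbc1d7, the third TSC subunit, at −1.19. Genes given here, at rest and below beyond the 3 with the smallest p per direction were named after their values were seen. These include Akt1 and Mlst8. Ddit4l, which encodes REDD2, had too few counts to test.

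In the interaction 8 of 64 passed, 2 in the positive and 6 in the negative direction, where 6.01% of all genes passed, 1.13% in the positive and 4.88% in the negative direction. They included Rheb at 0.43 (edgeR adjusted p = 0.0812), Prkab2 at 0.63 (edgeR adjusted p = 0.0872), Lpin1 at −1.62 (edgeR adjusted p = 0.000641), Eif4ebp1, which encodes a repressor of cap-dependent translation, at −1.59 (edgeR adjusted p = 0.0172), and Castor2 at −1.33 (edgeR adjusted p = 0.0207). Rheb did not pass in 8 and Prkab2 in 9 of the 13 fits that left out a mouse, with values down to 0.34 without CtslΔTEC mouse 6 for Rheb (edgeR adjusted p = 0.344) and 0.45 without WT mouse 5 for Prkab2 (edgeR adjusted p = 0.374), and neither passed with library totals or limma. Castor2 did not pass without WT mouse 5 (−1.18, edgeR adjusted p = 0.102). Lpin1 mean levels went from 45.3 to 36.8 CPM with stimulation in WT and from 55.3 to 14.6 CPM in CtslΔTEC cells. The response itself took in 56 of 64 genes in WT, 27 higher and 29 lower, and 53 of 64 in CtslΔTEC cells, 21 higher and 32 lower, where 67.7% and 71.2% of all genes passed. The 64 include Prr5l, which had too few counts to be tested at rest. Rheb, Prkab2 and Tfe3, a transcription factor held in the cytoplasm by mTORC1, rose by 1.64, 1.95 and 1.98 in WT and by 2.07, 2.57 and 2.02 in CtslΔTEC cells. Pik3cd, Pdcd4, which encodes a translation inhibitor, and Pik3r1, a PI3K regulatory subunit, had log2 fold changes of −2.37, −3.45 and −2.67 in WT and −3.16, −4.54 and −3.28 in CtslΔTEC cells.

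**Figure D5:**
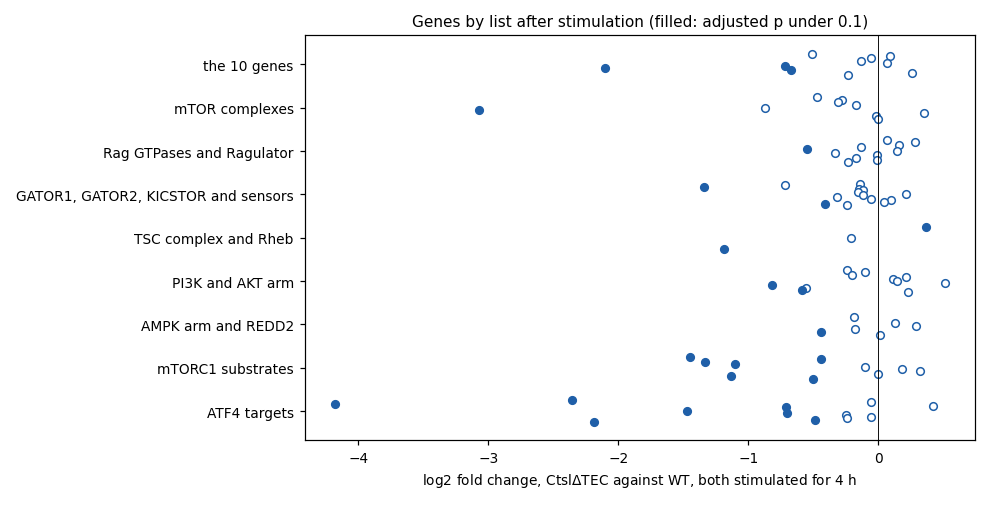
Log2 fold change between stimulated CtslΔTEC and stimulated WT cells (x axis) of the 10 genes, of the 7 pathway lists and of targets of ATF4; each point is a gene, and filled points passed an edgeR adjusted p under 0.1. Of the 64 pathway genes 14 are filled on the lower side and 1, Rheb, on the higher side. The 14 include Prr5l, which had too few counts to be tested at rest and entered the fit through stimulated libraries. Of 12 ATF4 targets 7 are filled on the lower side, or 5 of 10 without Chac1 and Asns, which entered the fit only through stimulated libraries.

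Transcription factors known to act on the sestrins and Ddit4 were read last. Atf4, which drives the amino acid response and Sesn2, rose from 86.9 to 186 CPM in resting WT mice to 376 and 469, and from 79.0 to 186 to 356 and 363 in CtslΔTEC mice, with log2 fold changes of 1.78 (edgeR adjusted p = 0.00028) and 1.59 (edgeR adjusted p = 0.000444). At rest the genotypes differed by −0.03 (edgeR adjusted p = 0.969), but with file date as a factor Atf4 was lower in CtslΔTEC cells at −0.24 (edgeR adjusted p = 0.081), as within the second date at −0.31 (edgeR adjusted p = 0.0655). Between stimulated genotypes it differed by −0.23 (standard error 0.40, edgeR adjusted p = 0.803). Foxo1, which sustains quiescence genes, was lower in CtslΔTEC cells both at rest, at 345 to 413 against 482 to 553 CPM (−0.46, edgeR adjusted p = 0.00167), and after stimulation, at 101 and 121 against 166 and 173 CPM (−0.61, edgeR adjusted p = 0.0047). The resting difference was −0.35 and did not pass with the Y-linked covariate (edgeR adjusted p = 0.215). Foxo1, Foxo3 and Nr3c1, the glucocorticoid receptor, fell with stimulation by 1.60, 1.70 and 1.14 on the log2 scale in WT and by 1.75, 1.96 and 0.98 in CtslΔTEC cells. Hif1a, of the hypoxia response, rose by 1.05 and 0.75. Trp53, which encodes p53, did not pass in any of the 5 comparisons and lay between −0.17 and 0.14. In the CtslΔTEC response it passed as a fall with library totals (−0.16, edgeR adjusted p = 0.0916) and with limma on log2(TPM + 1) (−0.22, limma adjusted p = 0.033).

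Lists of targets of these factors were counted in the same fits. At rest 3 of 10 ATF4 targets tested were lower in CtslΔTEC cells, Trib3 at −0.89, Psat1 at −0.53 and Slc7a5 at −0.28, and 1, Phgdh, was higher at 0.36, where 8.36% of all genes were lower and 6.42% higher. Of 12 tested with the stimulated libraries, 10 rose in WT and 7 rose in CtslΔTEC cells with 1, Trib3, lower, and between stimulated genotypes 7 were lower in CtslΔTEC cells and none higher. Without Chac1 and Asns, which had too few counts to be tested at rest and entered the fit only through stimulated libraries, 8 of 10 rose in WT and 6 of 10 in CtslΔTEC cells, where 32.9% of all genes rose in each response. Without them 5 of 10 were lower between stimulated genotypes, where 10.6% of all genes were lower and 2.77% higher. The lower ones of the 12 were Chac1, Asns, Trib3, Phgdh, Mthfd2, Psat1 and Slc7a5, at log2 fold changes from −4.18 for Chac1 to −0.49 for Slc7a5, and they act in glutathione breakdown (Chac1), in asparagine, serine and one-carbon synthesis (Asns, Phgdh, Psat1, Mthfd2) and in amino acid uptake (Slc7a5). Of 8 FOXO targets, 5 were lower and 1 higher in resting CtslΔTEC cells and 4 lower and 1 higher in stimulated ones, where 8.36% and 6.42% of all genes were lower and higher at rest and 10.6% and 2.77% after stimulation. With stimulation 1 rose and 7 fell in each genotype, where 32.9% of all genes rose in each and 34.8% in WT and 38.2% in CtslΔTEC cells fell. The lower ones at rest included Ccr7, Il7r, Klf2 and S1pr1, which serve homing and survival of mature T cells, and those after stimulation included Ccr7, Il7r and S1pr1, while Bcl6 was the higher one in both. Of 8 p53 targets tested at rest 1, Bbc3, which encodes the death inducer PUMA, was lower in CtslΔTEC cells at −1.50 (edgeR adjusted p = 0.000865). Of 9 tested after stimulation 1, Phlda3, was lower in stimulated CtslΔTEC cells and none higher, and of 5 glucocorticoid targets none passed between genotypes, at rest or after stimulation, by edgeR, and none had an unadjusted p under 0.05. With stimulation 4 p53 targets rose and 4 fell, and 3 glucocorticoid targets rose and 1 fell, in each genotype, against the 67.7% and 71.2% of all genes that passed in these responses. Without Cdkn1a, which had too few counts to be tested at rest and entered the fit only through stimulated libraries, 3 of 8 p53 targets rose and 4 fell in each genotype.

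The genes whose log2 CPM followed each inhibitor most closely over the 13 libraries, among 10090 genes whose mean reached 1 log2 CPM, are given as a description. For Sesn1 they were Mkrn2 and Crebl2 (Pearson r = 0.994 each) and Cnpy4 (0.992), and for Ddit4 Hmgb1-ps8 and A430078G23Rik (0.984 each) and Oas1b (0.983). For Sesn2, which separated the 2 stimulated WT libraries from the rest, they were Pmvk (0.959), St3gal4 (0.955) and Arfip2 (0.949), and for Sesn3 Ermp1 (0.948), Rffl (0.920) and Ate1 (0.914). The 13 points fall into resting and stimulated libraries, which also differ in depth and date, so these values describe that division as much as any closer likeness.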

How the data were processed

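RNA of sorted M2 CD4SP thymocytes was sequenced in 13 libraries, each from 1 mouse. The labels gave genotype, stimulation and mouse number. The labels name polyA RNA, whereas the study describes rRNA depletion, and this was not settled here. Transcript abundances came from kallisto 0.48 run by the authors on an Ensembl transcript set. The authors deposited estimated counts, which are not normalized, and TPM, which are scaled to transcript length and library, for each transcript. They also deposited effective lengths, used here for the length offset. Of 117497 transcripts, 116397 were paired with a gene through GENCODE M21 of GRCm38 by identifier. The remaining 1100 held no more than 0.461% of any library's counts. Estimated counts were summed over the transcripts of each gene and rounded, and TPM were summed. Because kallisto divides reads among transcripts by a model, shares of transcripts are less certain than sums over genes.

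Genes were compared with edgeR 4.0.16 in R 4.3.3, by the quasi-likelihood test with the filterByExpr filter and TMM scaling. P-values were adjusted by Benjamini-Hochberg over all genes tested, at the study's threshold of 0.1. The resting comparison used 9 libraries. The stimulated comparison, the interaction and both responses used a model with 1 mean for each of the 4 groups over 13 libraries. Standard errors were derived from the fold change and the F statistic. Log2 CPM used a prior count of 2. Single genes at rest were also compared by a two-sided exact permutation test in scipy 1.17.1. The labels name separate mice, so p-values measure the spread between mice. Depth ranged from 8085463 to 39127833 counts, and a gene such as Rragd, with 16 counts in the shallowest library, is measured least precisely.

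The members and all gene lists (7 pathway lists, regulators, targets of ATF4, p53, FOXO and the glucocorticoid receptor, markers) were chosen with earlier results of these data known. Named beside the members were, per comparison and direction, at most 3 pathway genes with the smallest adjusted p, the regulators, and the 3 genes with the highest correlation for the sestrins and Ddit4. Further genes of the pathway and target lists were named after their values were seen. Results were recomputed under 17 other settings, among them DESeq2 1.42.0, limma 3.58.1 on log2(TPM + 1), other scaling, filters, covariates and leaving out each mouse. Single values of 2 listed genes are not reported here. The fits were also run on simulated counts with known changes, whose outcome is not given here. Deviations of same-numbered resting mice correlated above 0.1 in 1 of 4 pairs, the only pair with the same file date, so mouse number was not used as a block.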

Additional observations from a re-analysis of the deposited data

Results flagged for a closer look

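Rptor in resting CtslΔTEC mouse 3 stood apart from its group, at 6.15 log2 CPM against 5.96 to 5.99 in the other 4 mice. Of 20 groups of 4 or 5 mice examined in this way, 1 such value is expected by chance.

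Sesn1 and Sesn2 responded differently to stimulation in the 2 genotypes, by the test of the interaction itself. The interaction was −0.89 on the log2 scale for Sesn1 (edgeR adjusted p = 0.053), which had log2 fold changes of −1.68 in WT and −2.57 in CtslΔTEC cells. It was −1.79 for Sesn2 (edgeR adjusted p = 0.00558), which had log2 fold changes of 1.99 and 0.19. The share of retained-intron counts and the depth also differed between the stimulated mice, and with the retained-intron share as a covariate the interaction was −0.80 (edgeR adjusted p = 0.153) for Sesn1 and −1.46 (edgeR adjusted p = 0.0146) for Sesn2.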

How the results depend on the processing

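Counts of the 10 genes past the threshold were recomputed under the other settings. At rest the count was 0 and became 1 with file date as a factor (Sesn2). Between stimulated genotypes it was 3 and became 1 with the retained-intron share as a covariate. For the interaction it was 2 and became 1 at a threshold of 0.05, with Y-linked levels and with the retained-intron share as covariates. The WT response went from 8 to 5 with the retained-intron share. The cause of these changes was not tested. Leaving out each mouse in turn gave 0 to 1 genes at rest, 1 to 3 between stimulated genotypes, 1 to 2 in the interaction, 6 to 9 in the WT response and 5 to 8 in the CtslΔTEC response, the 5 being without CtslΔTEC mouse 7. The count of 1 at rest came without WT mouse 1. That of 1 between stimulated genotypes came without CtslΔTEC mouse 6, and that of 1 in the interaction without stimulated CtslΔTEC mouse 6, stimulated WT mouse 5 or resting CtslΔTEC mouse 3.

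Among the 10 genes, a difference in the opposite direction passed under another setting for 2 genes, while some values near 0 that never passed crossed it, such as Tsc2 between stimulated genotypes (−0.43 to 0.07). The Sesn3 response in WT cells was 0.39 with an offset for transcript length and 0.33 with limma on log2(TPM + 1), and the Tsc2 response in CtslΔTEC cells was 0.48 and 0.37, in both cases by settings built on transcript length. Mouse number as a replicate block left the count at rest at 0. Deviations of same-numbered mice correlated at −0.157, 0.352, −0.098 and −0.142 for mice 1 to 4, so the numbers give no pairing. Mouse 2, at 0.352, was the only pair with the same file date. The part of date in that value was not tested. Over all genes, the share of calls higher in CtslΔTEC cells at rest was 43.4%, and 56.8% with library totals and 54.4% with limma on TPM. After stimulation it was 20.8%, and 36.6% with at least 10 counts in every library, and in the interaction 18.8%, and 29.3% with that filter and 29.5% with DESeq2. Library totals moved the median of all genes in the CtslΔTEC response by −0.144 (log2). The shallowest library, stimulated WT mouse 5, held 16 counts of Rragd, and Sesn2 had its fewest, 56 and 73, in stimulated CtslΔTEC mice 6 and 7.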
